A study of Rattus norvegicus with 8 samples.

Results

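Apolipoproteins are the protein components of the particles that carry cholesterol and triglyceride in blood, and the liver secretes most of them. The genes described here are the 10 hepatic apolipoproteins Apoa1, Apoa2, Apoa4, Apoa5, Apob, Apoc1, Apoc2, Apoc3, Apoe and Apom, out of 25512 gene names on the array. They were chosen by name, and every non-control probe whose gene name matched was used, which gave 20 probes, 2 for each gene. Livers came from male Sprague Dawley rats, an outbred laboratory strain. One group of 4 samples was from rats fed a diet of 60% fat for 12 weeks, called high-fat here, and the other 4 were from rats on a normal diet for the same time, called control. A body weight of 180 to 200 g is given for both groups, with no age, and whether every sample came from its own animal is not stated. The p-values therefore reflect only the variation among the arrays at hand, which may be technical. Whole liver RNA was labelled with Cy3 and hybridised to 1-colour Agilent arrays of 60-base probes, and the series asks which liver genes accompany insulin resistance under a high-fat diet.

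Apob forms the backbone of very-low-density lipoprotein (VLDL), the particle in which the liver exports triglyceride. Apoa1 and Apoa2 are the main proteins of high-density lipoprotein (HDL), and Apom is a smaller HDL protein that carries sphingosine-1-phosphate. Apoc2 activates lipoprotein lipase, the enzyme that removes triglyceride from particles in blood, while Apoc3 and Apoc1 restrain triglyceride removal and particle uptake. Apoa5 promotes triglyceride clearance, Apoa4 is made mainly by intestine and, in rodents, also by liver, and Apoe is the ligand by which remnant particles are taken up again. In the order of the RefSeq table (assembly GRCr8, used for gene order only), Apoa1, Apoc3, Apoa4 and Apoa5 are neighbours on chromosome 8, and Apoc2, Apoc4, Apoc1 and Apoe on chromosome 1.

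Each gene was read by 2 probes, and for 5 of the genes these share at least 10 bases. The following probes show how close such readings are, with the bases shared by both probes of a gene in capitals, 5′ to 3′ as the array files give them.
Apoa1 brighter probe: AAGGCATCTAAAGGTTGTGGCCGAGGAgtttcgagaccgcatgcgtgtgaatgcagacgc
Apoa1 other probe: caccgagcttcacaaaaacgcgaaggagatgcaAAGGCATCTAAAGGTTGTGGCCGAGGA
Apoe brighter probe: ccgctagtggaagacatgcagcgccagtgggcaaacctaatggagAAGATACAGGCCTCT
Apoe other probe: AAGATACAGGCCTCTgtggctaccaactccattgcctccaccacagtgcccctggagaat
Apoa5 shared stretch: AACACAGCTTCCGGTGCTCAT
The Apoa1 probes overlap by 27 bases, the Apoe probes by 15 and the Apoa5 probes by 21, so the readings within each of these genes come from adjoining stretches of the same transcript. Deviations from the group means correlated at 0.989 between the Apoa1 probes and 0.96 between the Apoe probes over the 8 arrays, and at -0.12 between the Apoa5 probes. Over the 10 genes the median of this correlation was 0.915. On rn4, the files place the brighter Apoe probe at chr1:79003795-79003854 on the minus strand, the brighter Apoa5 probe at chr8:49255236-49255295 and the brighter Apoa4 probe at chr8:49233335-49233394, both on the plus strand. Whether a probe lies in coding or untranslated sequence is not given in the sources used here.

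None of the 10 apolipoprotein genes passed the test between diets, and by the brighter probe of each gene all 10 measured changes were small. The values are normalized log2 intensities, where 0 is the level of the array's 75th percentile among probes well above background on all arrays. A gene stands for its brighter probe, and a gene was called at an adjusted p under 0.05 by limma over all 31535 tested probes. All 20 probes were well above background on all 8 arrays and were tested. The log2 change, high-fat minus control, ran from -0.14 for Apoa1 to 0.38 for Apoa5 with a median of 0.076, against a median of 0.004 over all 18587 genes tested. Among those genes 0.35% were called higher and 0.527% lower, so a set of 10 genes with no call is close to that background. By unadjusted p under 0.05, 1 member gene passed, Apoa5, where 15.6% of all genes did. For all 10 brighter probes the 95% interval of the change lay within 2-fold in either direction, as it did for 73.4% of all tested genes. Of all 20 probes 18 had such an interval, and the other probes of Apoa4 and Apoa5 did not. For 7 members the estimated change was within 10% of the control level. These changes and intervals concern probe signal. Before scaling, 8 of the 10 brighter probes rose less between arrays than the 75th percentile did (slopes below). How far their signal follows RNA amount was not tested.

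**Figure D1:**
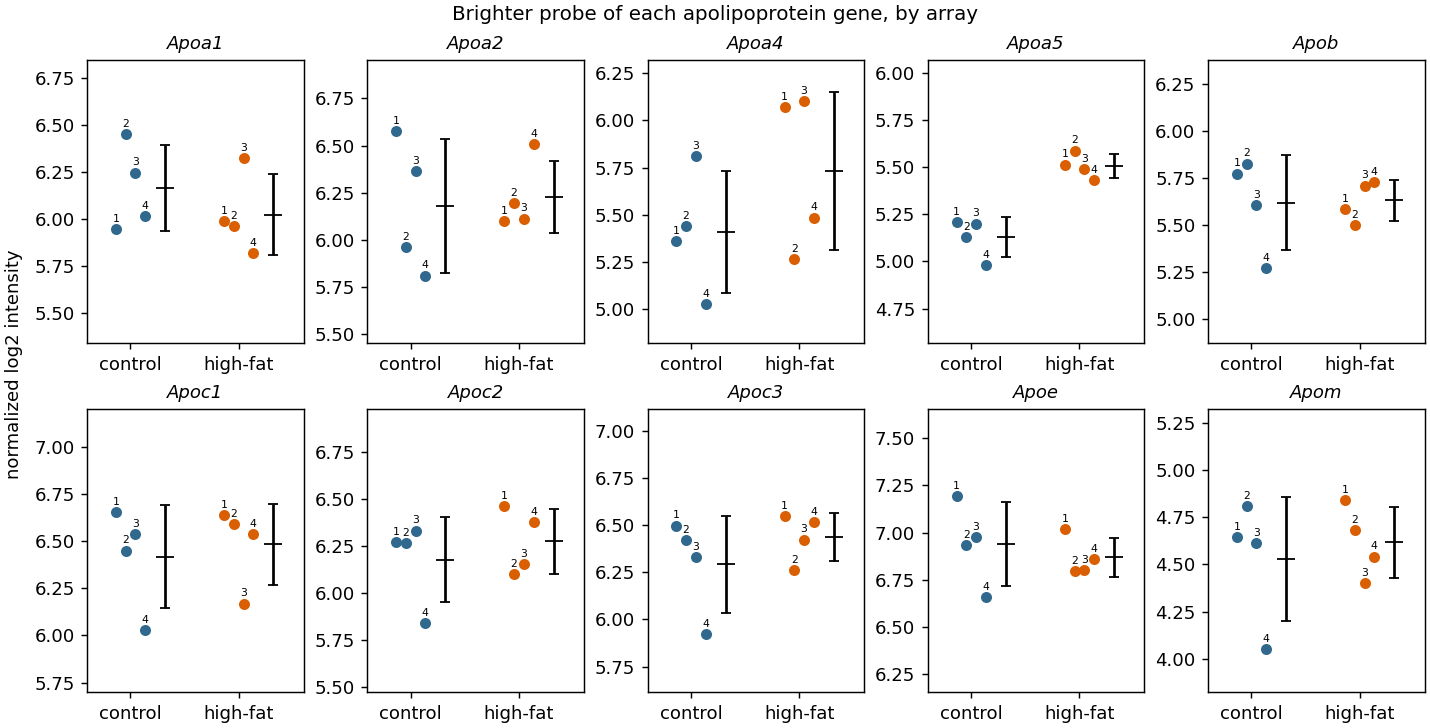
Normalized log2 intensity of the brighter probe of each apolipoprotein gene on the 4 control and 4 high-fat arrays, with replicate numbers above the points and the mean ± SD of each group beside them. Every panel spans 1.5 log2 units, and Apoa5 is the 1 gene whose groups do not overlap.

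Apoa5, which raises triglyceride clearance, came nearest to the threshold. Control arrays had 5.21, 5.13, 5.20 and 4.98 in replicates 1 to 4, and high-fat arrays had 5.51, 5.59, 5.49 and 5.43. Every high-fat value lay above every control value, and both groups were tight. The means were 5.13 ± 0.11 and 5.51 ± 0.06 (SD, n = 4 per group), a change of 0.38 with a 95% interval from 0.11 to 0.64, or 1.30-fold (1.08 to 1.56; adjusted p = 0.178 by limma). Apoa5 was the only member gene without overlap between the groups, and 11.1% of all tested genes had none, so 1 gene of 10 is near that background. The unscaled signals did not overlap either, with mean spot signals of 68829 to 93587 on control arrays and 102177 to 135503 on high-fat arrays. The unadjusted exact two-sided permutation p was 0.0286, which is the smallest that 4 arrays against 4 can give. Any groups of 4 without overlap have this p, so it only restates the lack of overlap.

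The other Apoa5 probe gave a change in the same direction with a wider spread. Control arrays had 3.46, 2.99, 3.21 and 3.55, and high-fat arrays 4.36, 3.84, 3.34 and 3.88. High-fat replicate 3 lay below control replicates 1 and 4, so the groups overlapped. The change was 0.56 (95% interval 0.036 to 1.08; adjusted p = 0.294 by limma). Of the 20 member probes, 1 had no overlap, the brighter Apoa5 probe, against 10.6% of all tested probes. Although both probes read high on the high-fat diet, their order of arrays within a group differed, as the correlation of -0.12 given above shows.

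Apoa4, whose gene neighbours Apoa5, had the widest interval of the 10. Control arrays had 5.36, 5.44, 5.81 and 5.02, and high-fat arrays 6.07, 5.27, 6.10 and 5.48. High-fat replicates 1 and 3 stood above all controls, while replicates 2 and 4 lay among them. The change was 0.32 (95% interval -0.24 to 0.88; adjusted p = 0.595), or 1.25-fold. The other Apoa4 probe was much dimmer, with mean spot signals of 633 to 4706. It had -1.78, -0.66, 0.13 and -0.33 on control arrays and 1.21, -0.91, 0.60 and -0.32 on high-fat arrays. The same high-fat replicates 1 and 3 were highest there, and control replicate 1 was lowest. Its change was 0.80 with an interval from -0.41 to 2.02 (adjusted p = 0.532), so a change of up to 4.05-fold is within the interval of that probe.

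The HDL proteins Apoa1 and Apoa2 showed no difference past their spread. Apoa1 had 5.95, 6.45, 6.25 and 6.02 on control arrays and 5.99, 5.96, 6.32 and 5.82 on high-fat arrays. High-fat replicates 1, 2 and 4 were below control replicates 2, 3 and 4, and high-fat replicate 3 was among the higher arrays. The change was -0.14 (95% interval -0.52 to 0.24; adjusted p = 0.748), and -0.12 by the other probe. Apoa2 had 6.58, 5.96, 6.36 and 5.81 on control arrays and 6.10, 6.20, 6.11 and 6.51 on high-fat arrays. Its controls spanned the whole range of the high-fat arrays, with a change of 0.050 (-0.40 to 0.50; adjusted p = 0.939), and 0.15 by the other probe. Apom, the sphingosine-1-phosphate carrier, had 4.65, 4.81, 4.61 and 4.05 on control arrays and 4.84, 4.68, 4.40 and 4.54 on high-fat arrays. Control replicate 4 was the lowest of the 8, and the change was 0.086 (-0.35 to 0.52; adjusted p = 0.88), with 0.21 by the other probe (-0.18 to 0.60).

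Apob, the structural protein of VLDL, had the smallest change of the 10. Control arrays had 5.77, 5.83, 5.61 and 5.27, and high-fat arrays 5.58, 5.50, 5.71 and 5.73. All high-fat values lay inside the range of the controls, and the means were 5.62 ± 0.25 and 5.63 ± 0.11 (SD, n = 4 per group). The change was 0.011 (95% interval -0.34 to 0.36; adjusted p = 0.985), or 0.79-fold to 1.28-fold, and 0.066 by the other probe. Its sign turned negative after normexp background correction and under 3 other scalings.

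The lipase activator Apoc2 and its opponents Apoc3 and Apoc1 did not pass, and their groups overlapped. Apoc2 had 6.27, 6.27, 6.33 and 5.84 on control arrays and 6.46, 6.10, 6.16 and 6.38 on high-fat arrays, a change of 0.096 (-0.26 to 0.46; adjusted p = 0.832). Apoc3 had 6.50, 6.42, 6.33 and 5.92 against 6.55, 6.26, 6.42 and 6.52, a change of 0.15 (-0.215 to 0.51; adjusted p = 0.727). Apoc1 had 6.65, 6.45, 6.54 and 6.03 against 6.64, 6.59, 6.17 and 6.54, a change of 0.066 (-0.34 to 0.47; adjusted p = 0.905). In each of these genes control replicate 4 was the lowest array. The other Apoc2 controls lay within the range of the high-fat arrays, and high-fat replicate 3 was the lowest of the remaining arrays for Apoc1. The other probes gave 0.041 for Apoc2, 0.12 for Apoc3 and 0.040 for Apoc1.

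Apoe, the remnant ligand, had 7.20, 6.93, 6.98 and 6.66 on control arrays and 7.02, 6.80, 6.80 and 6.86 on high-fat arrays. The high-fat values all lay between the lowest and the highest control. The change was -0.070 (95% interval -0.40 to 0.26; adjusted p = 0.871), and -0.072 by the other probe. Macrophages also make Apoe, and all 8 tested macrophage and Kupffer cell markers had negative changes with none past the threshold. For 2 of the 8 the groups did not overlap, as for 11.1% of all tested genes. The summed level of the 8 markers was 5.50 to 5.95 on control arrays and 5.002 to 5.57 on high-fat arrays. It is the log2 of the sum of normalized intensities. The part of these markers in the Apoe values was not tested. In whole liver, fewer cells of a type and less RNA per cell cannot be told apart.

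**Figure D2:**
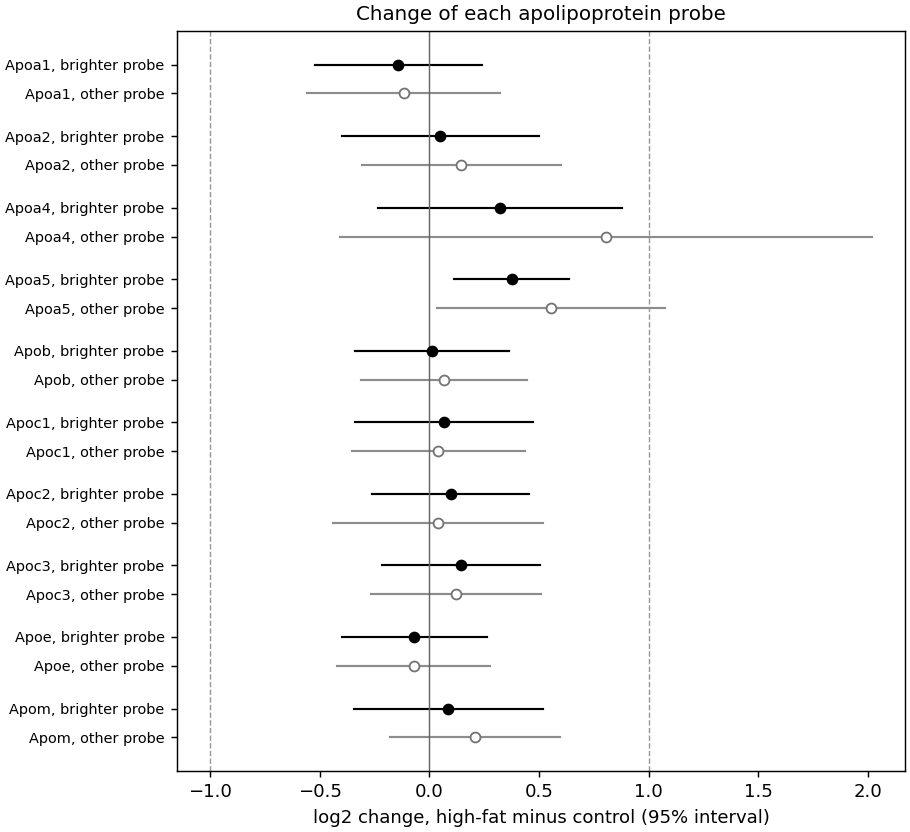
Log2 change, high-fat minus control, of both probes of each apolipoprotein gene, with 95% intervals from limma; filled points are the brighter probes and dashed lines mark 2-fold in either direction. The intervals of 18 of the 20 probes lie between the dashed lines, those of the other Apoa4 and the other Apoa5 probe reach past the upper one, and both Apoa5 probes have intervals above 0.

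The signs of the changes leaned one way, with 8 of 10 genes and 16 of 20 probes positive, but this rested on 1 control array. Control replicate 4 had the lowest value of its group for 16 of the 20 probes, while 24.2% of all tested genes were lowest on that array. The median deviation of the 10 genes from their control mean was -0.358 on it, against 0.06 to 0.135 on the other controls. Without control replicate 4, 3 of 10 changes were positive and their median was -0.068. With each other array left out, between 6 and 9 were positive. Within the first slide row, which held replicates 1 and 2 of both diets, the median change was -0.021, and within the second, which held replicates 3 and 4, it was 0.202. The sign was the same in both rows for 6 of the 10 genes. By its brighter probe Apoa5 kept both its sign and its size, with 0.382 in the first row and 0.37 in the second. Without control replicate 4 this probe had 0.326. The groups of the other Apoa5 probe lay further apart in the first row, with high-fat values of 4.36 and 3.84 against controls of 3.46 and 2.99. In the second row that probe had 3.34 and 3.88 against 3.21 and 3.55.

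**Figure D3:**
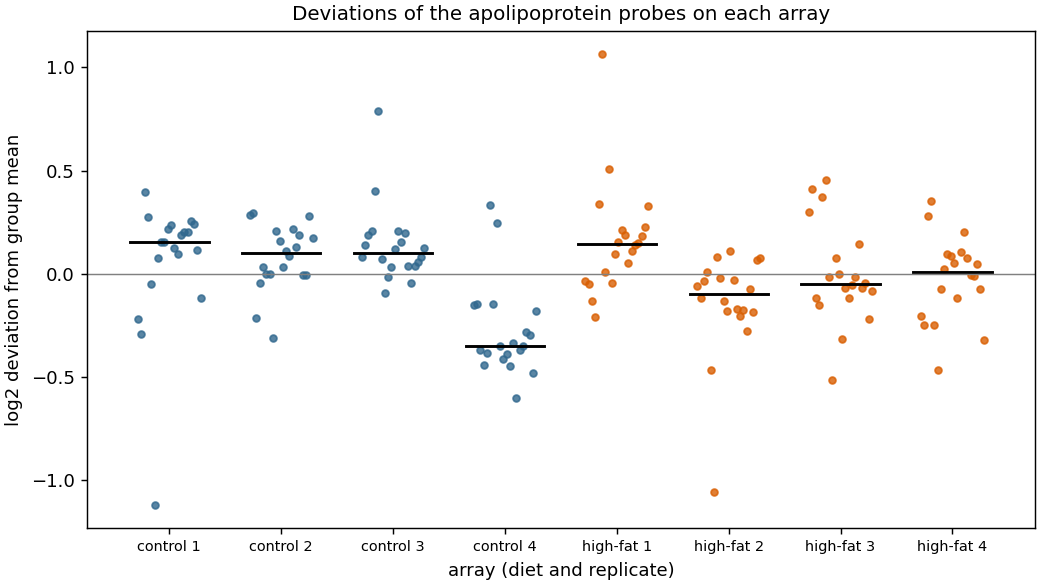
Deviation of each of the 20 apolipoprotein probes from its own group mean, on the log2 scale, for every array; points run in the order of the genes and black bars are medians over the probes. Control replicate 4 has 16 probes at the lowest value of the control group, and high-fat replicate 1 has 11 at the highest of the high-fat group.

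These deviations moved with the overall brightness of the arrays. The 75th percentile by which an array is scaled was 10.91, 11.28, 11.27 and 11.53 on the log2 scale for control replicates 1 to 4, and 11.11, 11.46, 11.48 and 11.43 for high-fat replicates 1 to 4, a span of 1.54-fold. Control replicate 4 was the brightest array, and the dimmest of each group, replicate 1, had the highest value for 9 control and 11 high-fat probes. Processed Apoe signals before scaling spanned 1.14-fold over the same 8 arrays. The mean spot signals of Apoe reached at most 41.2% of the saturation value, and no member spot was flagged as saturated. Per unit of an array's log2 75th percentile, the unscaled log2 signal rose by 0.262 for Apoe, by 0.281 for Apoc1 and by 1.07 for Apoa5. The median of this slope was 0.466 over the 10 members, with 8 of them below 1, and 1.04 over all tested genes. Among the 100 genes with the brightest probes, 7 of them members, it was 0.567. The slopes describe 8 arrays and carry no test, and the part of array brightness in the members' changes was not tested. With no scaling between arrays, an alternative added after the data were seen, the median change was 0.197 for the members and 0.124 for all genes, and again no member passed (lowest adjusted p = 0.471).

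**Figure D4:**
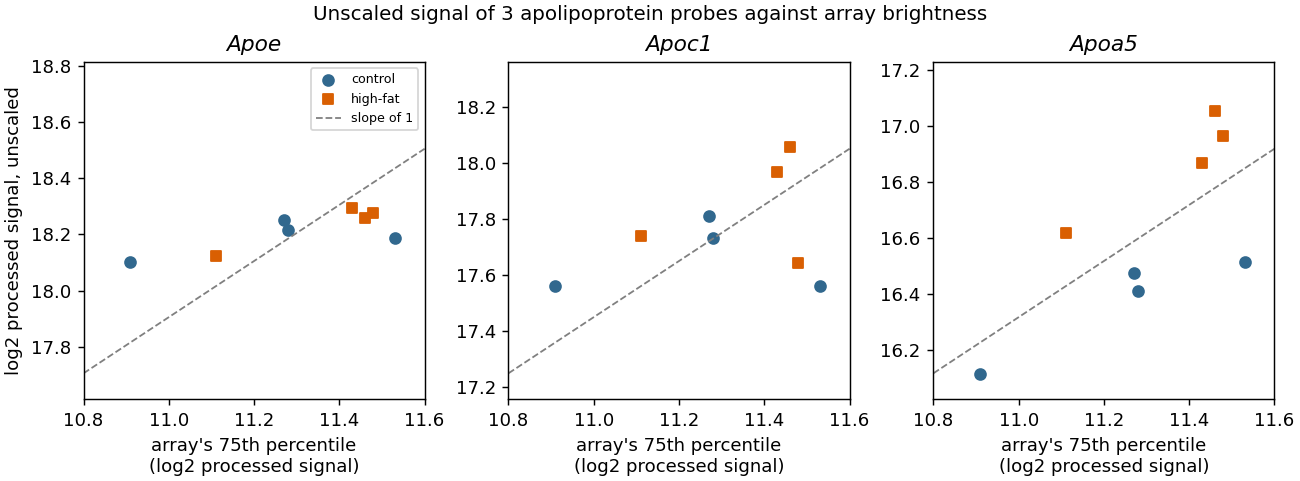
Unscaled log2 processed signal of the brighter Apoe, Apoc1 and Apoa5 probes against the log2 75th percentile of each array, with control arrays as circles and high-fat arrays as squares; the dashed line has a slope of 1 and passes through the mean. These genes were picked after their slopes were seen, as both lowest values and 1 near 1; Apoe and Apoc1 rise less than the line, and the high-fat arrays of Apoa5 lie above its controls.

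Within groups, the members' deviations were mostly correlated positively. Over the 45 pairs of genes, deviations from the group means had a median correlation of 0.569, and 42 pairs were positive. Values ran from -0.434 for Apoa1 with Apoa2 to 0.906 for Apoc2 with Apoc3. Apoa1 had all 3 negative pairs, with Apoa2, Apoc1 and Apoe. All points come from the same 8 arrays and share each array's scaling, so these values are descriptions. The median pooled SD was 0.212 for the members and 0.278 over all tested genes. As 7 members were among the 100 genes with the brightest probes and genes of like brightness were not compared, whether the lower spread is particular to apolipoproteins was not tested.

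For neighbours in the clusters, the per-array difference of log2 intensities asks whether the genes changed unequally, and no scaling of a whole array moves it. None of the 9 pairs passed after adjustment over the pairs, and 0 had groups without overlap. With 4 arrays against 4 the smallest exact p is 0.0286, so 1 fully separated pair would have an adjusted p of 0.257 and at least 6 of the 9 would have to reach that p to pass. The lack of a call therefore does not show equal change. The largest was Apoa1 minus Apoa5, with 0.74, 1.32, 1.05 and 1.03 on control arrays and 0.47, 0.37, 0.83 and 0.38 on high-fat arrays. High-fat replicate 3 lay above control replicate 1, and the others were lower than all controls. The difference moved by -0.52 between diets (1.03 ± 0.24 and 0.52 ± 0.22, SD, n = 4 per group; exact two-sided permutation p = 0.0571, adjusted 0.309). Apoa1 minus Apoa4 moved by -0.46 (exact permutation p = 0.114, adjusted 0.309). In the other cluster, Apoe minus Apoc2 moved by -0.17 (exact permutation p = 0.143, adjusted 0.309) and Apoc1 minus Apoc2 by -0.031 (exact permutation p = 0.743, adjusted 0.836).

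Among 11602 genes with a symbol, the deviations most like those of Apoa5 over the 8 arrays were those of Ppm1b, Hint1, Slc38a7, Csf2ra and Bsdc1, with correlations of 0.966, 0.964, 0.96, 0.956 and 0.956. These are the highest of many values over few arrays, with no test, and they concern the brighter Apoa5 probe, whose pattern the other Apoa5 probe did not share (-0.12). Their changes between diets had either sign, from -0.79 for Slc38a7 (adjusted p = 0.0811) to 0.41 for Ppm1b (adjusted p = 0.144), and none passed.

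Other genes of lipoprotein metabolism were read from lists chosen by function, with earlier results of these data known. Of 12 other apolipoproteins none passed, with 7 positive changes and a median of 0.023. Apon, a lipoprotein component of rodents, had the smallest p. It had 0.77, 0.44, 1.18 and 1.11 on control arrays and 2.05, 1.77, 1.81 and 1.63 on high-fat arrays. The groups were apart, with a change of 0.94 (95% interval 0.51 to 1.37; adjusted p = 0.0659) and 0.76 by its other probe (adjusted p = 0.0748). Apon passed in 4 of 23 alternatives of the processing, the threshold of 0.1 among them. Apoc4, which lies between Apoc2 and Apoc1, had a change of 0.071 (adjusted p = 0.886).

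Among the genes that edit, load, process, clear and control the particles, the only call was Srebf2, a regulator of cholesterol genes. Of both genes that edit the Apob transcript, Apobec1, the deaminase that makes the short form of Apob, had -0.67 (95% interval -1.07 to -0.27; adjusted p = 0.124) and A1cf, its partner, -0.12. None of 12 genes of particle assembly and lipid loading passed, with 3 positive changes and a median of -0.15. Mttp, which loads lipid onto Apob, had -0.088 (-0.45 to 0.28), and Pltp, the phospholipid transfer protein, had -0.63 (adjusted p = 0.0671), with -0.39 by its other probe (adjusted p = 0.357). Pltp passed in 3 of 23 alternatives of the processing, the threshold of 0.1 among them. Lcat, which esterifies cholesterol on HDL with Apoa1 as its activator, had 0.69 (adjusted p = 0.124). Among 10 lipases, lipase inhibitors and HDL enzymes none passed, with a median of 0.15, and hepatic lipase Lipc had 0.55 (0.15 to 0.95; adjusted p = 0.194) and 0.50 by its other probe.

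Of 10 genes of receptors and clearance none passed, with 2 positive changes and a median of -0.25. Lsr, the lipolysis-stimulated lipoprotein receptor, had -0.43 (95% interval -0.79 to -0.072; adjusted p = 0.245). Lrp1, a receptor for Apoe-bearing remnants, had 0.22 (-0.17 to 0.61; adjusted p = 0.607), and Scarb1, the receptor that takes cholesterol from HDL, had -0.047 (-0.50 to 0.40; adjusted p = 0.943). The intervals of Lrp1 and Scarb1 lay within 2-fold in either direction and held 0.

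Among 18 transcription factors known to act on apolipoprotein genes, 1 fell, none rose and 17 did not pass, with 12 positive changes and a median of 0.11. Srebf2 fell by 0.82, from 0.33 ± 0.14 to -0.49 ± 0.21 (SD over 4 arrays of each diet; limma, adjusted p = 0.0491), and its other probe had -0.84 (adjusted p = 0.0623). Control arrays had 0.37, 0.17, 0.51 and 0.28 and high-fat arrays -0.30, -0.69, -0.31 and -0.66. The groups were apart, but the call was lost in 16 of 23 alternatives, with each single array left out among them (changes from -0.886 to -0.756). Hnf4a, the liver factor that drives many apolipoprotein promoters, had -0.39 (-0.89 to 0.10; adjusted p = 0.443), and Ppara, the fatty acid sensor, -0.035 (-0.82 to 0.75; adjusted p = 0.979).

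**Figure D5:**
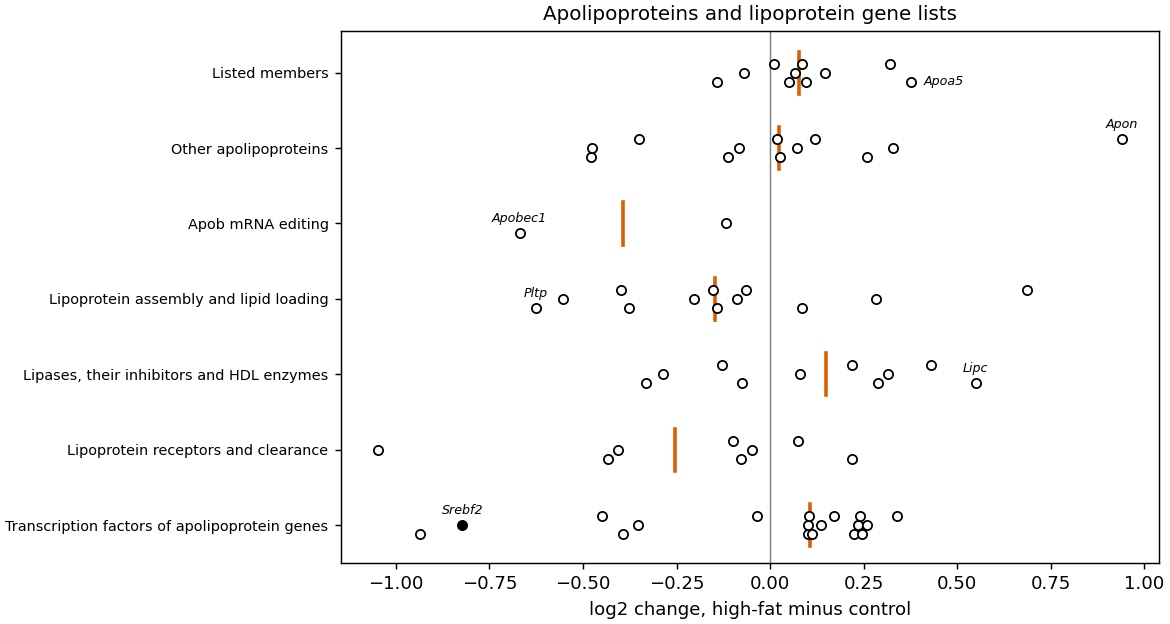
Log2 change, high-fat minus control, of each tested gene of the 10 apolipoproteins and of 6 lists of lipoprotein genes; vertical bars are medians, filled points passed the test, and the vertical scatter only separates points. The 10 listed members lie between -0.14 and 0.38, Srebf2 at -0.82 is the filled point, and genes whose single values are not reported here are not drawn but count in the medians.

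The tissue label and the cell types that could bear on the members were read from marker lists. All 8 hepatocyte markers were well above background and none passed, with a median change of -0.023 and a summed level of 9.18 to 9.59 on control and 9.21 to 9.58 on high-fat arrays. Of 7 enterocyte markers, which matter because intestine makes Apoa4 and Apob, 4 were tested and none passed, with a median of 0.614 and a summed level of -0.014 to 1.98 on control and 1.73 to 2.41 on high-fat arrays. On control replicate 4 and the high-fat arrays the level is mostly that of Cdh17, a cadherin of that list. Which cells of the samples made the Cdh17 signal was not tested. Cdh17 had -3.75, -3.77, 0.12 and 1.61 on control and 1.29 to 2.16 on high-fat arrays (change 3.22, adjusted p = 0.24 by limma). On control replicates 1 and 2 the level is mostly that of Cdx1, an intestinal transcription factor, with -0.05 and -0.27. The change of Cdx1 between diets was -0.43 with no overlap between groups (adjusted p = 0.156 by limma). The part of these markers in the Apoa4 and Apob values was not tested. Sucrase-isomaltase, Si, was well above background on 0 of 8 arrays. No erythroid marker of 3 tested passed, with a median of 1.05 and a summed level of 3.26 to 4.83 on control and 4.75 to 5.28 on high-fat arrays. Of these, Hbb, a globin, had 1.05 (adjusted p = 0.181), Alas2, of heme synthesis, 1.43 with no overlap (adjusted p = 0.09) and Slc4a1, an anion exchanger, -0.29. No marker of adipocytes (3 of 5 tested, median -0.35) or cholangiocytes (3 tested, median -0.59) passed. Among 5 lymphocyte markers 1, Cd3g, fell and the others did not pass, with 2 positive changes and a median of -0.25. Among 5 stellate cell markers 1, Reln, rose and the others did not pass, with 3 positive changes and a median of 0.34. The fewest probes well above background were found on control replicate 1 (50.4%) and high-fat replicate 1 (56.3%), against 64.3% to 71.9% on the other arrays, and without both of these no member passed (lowest adjusted p = 0.249).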

How the data were processed

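The members and lists were chosen with earlier results of these data known. Per the file headers, Agilent Feature Extraction 10.7.3.1 made each spot's intensity, subtracted background and flagged spots. The authors' deposited table holds log2 values, used as an alternative. Each of its columns correlated at 0.9991 or more with that array's scanner values, without centring per probe and with brighter as higher. No scaling of a whole array moves this correlation. On each array 98.5% to 98.9% of the deposited values lay within 0.05 of the log2 scanner values scaled to the 75th percentile of all probes. How the deposited table was scaled is not stated in the sources used here. Its column medians were -3.10, -3.21, -3.14 and -3.17 for control and -3.14, -3.20, -3.16 and -3.20 for high-fat replicates 1 to 4.

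Here, control spots and flagged outlier spots were left out, spots of a probe were averaged, and log2 processed signal was set relative to each array's 75th percentile over probes well above background on all 8 arrays (47.9% of 46883). A probe counted as such on an array where at least 50% of its spots were. The 31535 probes so on at least 4 of 8 arrays were tested with lmFit and eBayes (limma 3.58.1 under R 4.3.3), adjusted by Benjamini-Hochberg over these probes at a threshold of 0.05. A gene stands for its tested probe with the highest mean. Named genes are all members, and of the 6 lipoprotein lists each gene past the threshold and the one with the smallest p. Others were named for their role after their values were seen. Not every listed gene has its own value reported here. Pairs of members were tested by exact permutation. The number of arrays limits the precision. The fit was tested on simulated data. All arrays lay on 1 slide. Coordinates (rn4) and probe sequences are copied from the array files.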

Additional observations from a re-analysis of the deposited data

Results flagged for a closer look

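Groups of 4 values, 56 in all, were searched for 1 array lying far from its group: those of the member probes, of 6 genes of the lists and of measures of the arrays. It was found in 5 of the 56 groups, where chance gives about 1 in 20 groups. The groups are not independent, as both probes of a gene were read on the same arrays. Control replicate 4, the brightest array, accounts for 3 of the 5. It had Apoc2 at a normalized log2 intensity of 5.842 by the brighter probe, against 6.266 to 6.332 in the other controls, and at 4.953 by the other probe, against 5.745 to 5.772. Apoc1 by its other probe was at 2.96 there, against 3.515 to 3.614. Control replicate 2 had Pltp at -1.212, against -1.037 to -1.006. High-fat replicate 1 had a 75th percentile log2 signal of 11.105, against 11.433 to 11.476 on the other high-fat arrays.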

How the results depend on the processing

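No member was called under any of the 23 alternatives. No pair of members passed under any of the 12 run for them, which says little: with 4 arrays against 4, or 3 against 4, at least 6 of the 9 pairs would have to reach the smallest exact p, and with the replicate block (smallest exact p of 0.125) none could pass. The changes of Apoa1, Apoa4, Apoa5 and Apoc3 kept their sign in all 23, and Apoa5 ran from 0.326 to 0.496 (adjusted p from 0.0715 to 0.471) with no overlap between groups in all 7 that compute its values anew, while the others leave the values as they are or remove arrays. Genes called over the whole array numbered 163 and became 254 after normexp, 5 with no filter on dim probes, 331 with probes well above background on all arrays, 335 with a trend and robust variance, 98 with slide row as a block, 504 at a threshold of 0.1, 14 without replicate 1 of both diets, 50 with no scaling, and 16 to 91 with 1 array left out. The change of Apob was -0.03 after normexp, -0.003 with scaling over all probes, -0.011 after quantile normalization and -0.004 with scaling to the median, that of Apoe was 0.05 with no scaling, and that of Apoa4 minus Apoa5 was 0.097 with the mean of all probes. With 1 array left out the changes ran from -0.073 to 0.183 for Apoa2, -0.104 to 0.08 for Apob, -0.064 to 0.171 for Apoc1, -0.016 to 0.154 for Apoc2, -0.165 to 0.015 for Apoe, -0.073 to 0.179 for Apom, -0.184 to 0.127 for Apoa4 minus Apoa5 and -0.124 to 0.035 for Apoc1 minus Apoc2. The cause was not tested. Same-numbered arrays had deviations correlated at -0.125, 0.299, 0.26 and 0.006, so the numbers were not taken to pair the samples, and with the replicate block 1 gene and 0 members were called.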
